A study of Mus musculus with 6 samples.

Results

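Respiratory complex I is the NADH:ubiquinone oxidoreductase of the mitochondrial inner membrane, and its nuclear-encoded subunits carry symbols that begin with Ndufa, Ndufb, Ndufc, Ndufs or Ndufv. Every probe set that the platform annotation assigned to exactly 1 such gene was taken, which gave 78 probe sets of 36 subunit genes among 18193 genes with such a probe set in the whole table. A further 10 probe sets of 8 genes named Ndufaf, which encode assembly factors rather than subunits, were kept apart. RNA from mouse heart was measured on Affymetrix arrays, each value being the log2 level of a probe set, a group of short probes for a transcript. The labels give 3 arrays of C57BL/6 hearts overexpressing hAT1R (titled hAT1R tg), the human type 1 angiotensin II receptor, and 3 of normal C57BL/6 hearts (titled Non transgenic). Both groups thus share the strain. Neither the promoter and cell type that drive the transgene nor the ages or any pooling of animals are stated in the sources read. The labels do not tie each array to a separate mouse, so p-values reflect the spread among these arrays, part of which may be technical.

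Complex I takes electrons from NADH at the tip of its matrix arm, passes them along a chain of iron-sulphur clusters to ubiquinone, and couples this to proton pumping in its membrane arm. Its core subunits hold the cofactors and the pump and have bacterial counterparts, while the accessory subunits surround the core and are needed for stability and assembly. The core subunits of the matrix arm are encoded in the nucleus and those of the membrane arm in mitochondrial DNA. The heart, which makes most of its ATP by respiration, expresses these genes at very high levels.

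The 2 sources of group names disagreed. On all 6 arrays the word in the instrument record's chip lot field was that of the other group: the labelled transgenic arrays carry "control" and the others carry "transgene". The groups follow the sample labels, hence "labelled transgenic", and taking the other words would turn every sign below. No probe set used here stood for the human receptor, so it could not check the labels, and mouse Agtr1a differed by -0.05 ± 0.26 (SE). By the labels, Myh7 and Nppa, known to be higher in stressed heart muscle and picked here after their values were seen, were higher in the labelled transgenic hearts, at 4.65 (limma adjusted p = 0.023) and 2.19 (0.0257). They were not used to assign groups. Fluidics station 2 processed every labelled transgenic array plus 1 non-transgenic array (replicate 1), and station 3 the remaining 2. All labelled transgenic arrays were scanned first, so scan order and group cannot be told apart. The defining heart muscle markers were present at high level (12 of 12 tested, median level log2 15.01). Xist, from the inactive X chromosome, was at 9.48, 2.58 and 9.48 on the labelled transgenic arrays and at 2.49, 9.69 and 3.01 on the others. Each group thus held both sexes and at least 2 animals, but the proportion of the sexes differed between the groups.

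No complex I subunit passed the test, yet nearly all lay slightly lower in the labelled transgenic hearts. A probe set was tested when its mean level lay above log2 3.285, the median of all, and a gene was represented by its brightest probe set. This left 72 probe sets of 35 subunit genes, Ndufb4 being the gene without one. In limma's moderated test 0 of the 35 genes had an adjusted p under 0.05, where 0.227% of the 11016 genes tested did, and the lowest adjusted p of a subunit gene was 0.179. The change from non-transgenic to labelled transgenic hearts was below 0 in 32 of 35 (91.4%), against 47.6% of all genes, with a median of -0.10 against 0.01. At an unadjusted p under 0.05, 10 were lower and 0 higher, 28.6% of the subunits, where 7.76% of all genes were lower and 10.4% higher. In 21 (60.0%) all 3 labelled transgenic arrays lay below all 3 others, which held for 10.9% of all genes, and the opposite held for 0 of the 35 against 14.3%.

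**Figure D1:**
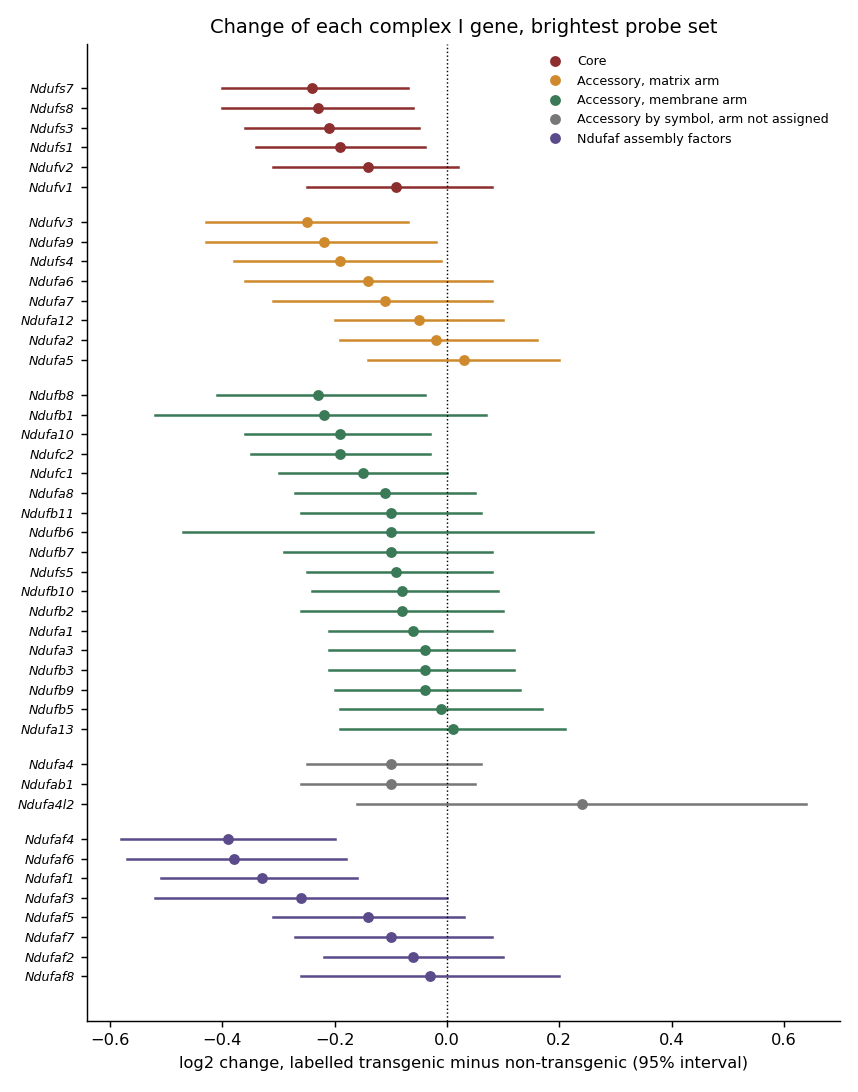
Change of each of the 35 subunit genes and 8 Ndufaf genes (x axis, log2, labelled transgenic minus non-transgenic; points are the limma estimate and lines its 95% interval, n = 3 per group), ordered within classes. All 6 core subunits sit left of 0, between -0.24 and -0.09, and Ndufa4l2 stands alone at the right, at 0.24.

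The 6 nuclear core subunits measured belong to the matrix arm. Their median change was -0.20, with 6 of 6 below 0, 4 lower at an unadjusted p under 0.05, and 5 without overlap between the groups. Over all genes 47.6% were below 0, 7.76% lower at that p and 10.9% lower without overlap. Ndufs7 carries the last iron-sulphur cluster before ubiquinone. It was at log2 14.07, 14.05 and 13.94 on the labelled transgenic arrays and at 14.26, 14.27 and 14.24 on the others. All labelled transgenic values lay below, and the change was -0.24 ± 0.07 (SE, limma adjusted p = 0.179), or 1.18-fold lower. Ndufs8, which holds further clusters on the path to ubiquinone, was at 14.53, 14.56 and 14.57 against 14.77, 14.72 and 14.86. These groups did not overlap either, at -0.23 ± 0.07 (limma adjusted p = 0.195).

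Ndufs3, a subunit of the ubiquinone-binding part, was at 13.49, 13.53 and 13.46 against 13.71, 13.66 and 13.73, with no overlap. Its change was -0.21 ± 0.06 (limma adjusted p = 0.207). Ndufs1, the largest subunit and a carrier of clusters near the NADH site, was at 13.68, 13.62 and 13.61 on the labelled transgenic arrays. On the non-transgenic ones it was at 13.83, 13.83 and 13.82, an almost flat set with an SD below 0.01, and the change was -0.19 ± 0.06 (limma adjusted p = 0.221). The pair that forms the NADH-oxidising tip differed less. Ndufv2 was at 14.30, 14.25 and 14.20 against 14.40, 14.33 and 14.43, a change of -0.14 ± 0.07 (limma adjusted p = 0.364) with no overlap. Ndufv1, which binds NADH and the flavin, was at 13.65, 13.62 and 13.55 against 13.74, 13.63 and 13.71, a change of -0.09 ± 0.07 (limma adjusted p = 0.583) with overlapping groups. From Ndufs7 to Ndufv1 the 6 intervals all overlapped, so the order of these changes is not resolved.

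**Figure D2:**
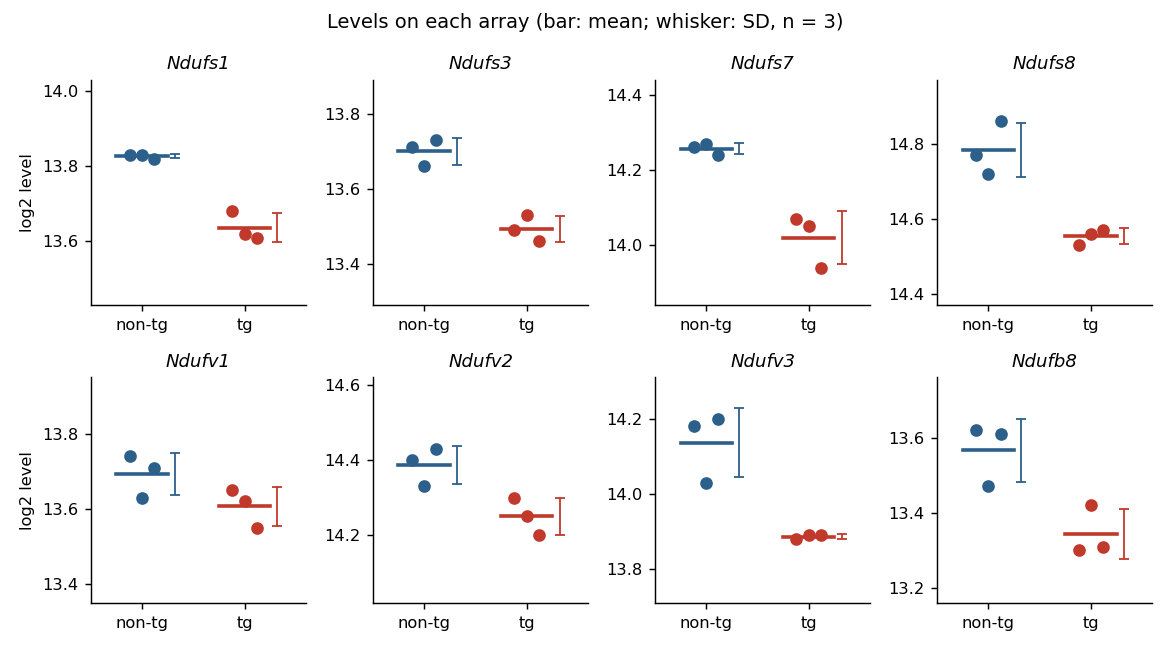
Log2 level on each array (points) of the 6 core subunits, Ndufv3 and Ndufb8, with the mean (bar) and SD (whisker, n = 3) of each group; every panel spans 0.6 log2 units. The groups are apart in all panels but that of Ndufv1, where 13.65 and 13.63 cross.

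The single mitochondrially encoded core gene with a probe set used here was ND5, a proton-pumping subunit of the membrane arm. It was at 15.52, 15.62 and 15.51 on the labelled transgenic arrays and 15.64, 15.60 and 15.60 on the others. The groups overlapped, and its change was -0.07 ± 0.07 (limma adjusted p = 0.665).

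Accessory subunits had a median change of -0.10, smaller in size than the -0.20 of the core, a difference of -0.10 between the medians. Of 29 measured, 26 lay below 0, 6 were lower at an unadjusted p under 0.05 and 16 had no overlap. Each of these shares (89.7%, 20.7% and 55.2%) was under that of the core (100%, 66.7% and 83.3%), and all were above those of all genes. With 6 core genes, all from the matrix arm, core membership and arm are partly the same. The 8 accessory subunits of the matrix arm had a median of -0.13 with 7 below 0, and the 18 of the membrane arm -0.09 with 17 below 0. On single arrays, the median core level relative to each gene's own mean ran from -0.12 to -0.06 in the labelled transgenic group and from 0.06 to 0.11 in the other. For accessory subunits it ran from -0.09 to -0.03 and from 0.02 to 0.07, and for all genes from -0.02 to 0.01 and from -0.03 to 0.00. No test was made of medians over the members.

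**Figure D3:**
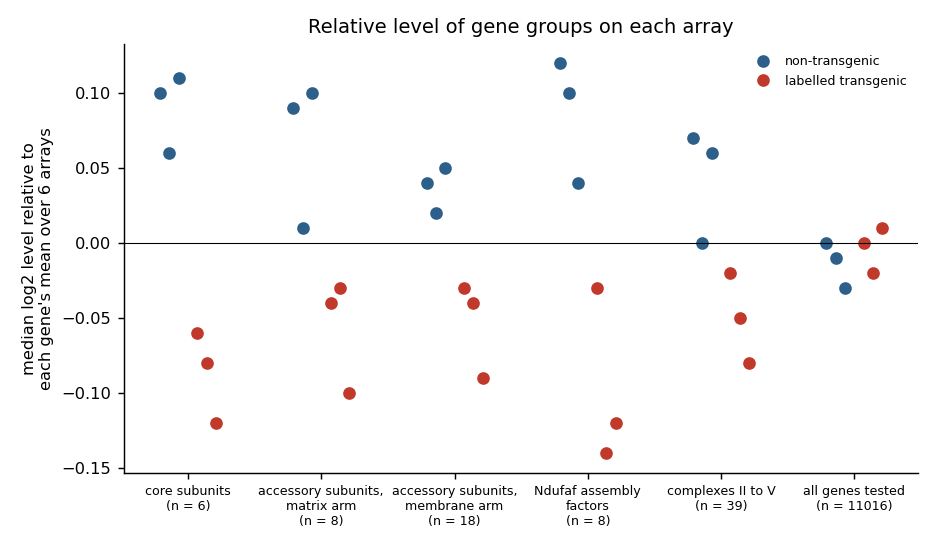
Median over the genes of each group (x axis) of the log2 level relative to each gene's mean over the 6 arrays (y axis), 1 point per array. In the core the labelled transgenic arrays lie at -0.12 to -0.06 and the others at 0.06 to 0.11, and in all genes tested every array is between -0.03 and 0.01.

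In the matrix arm, the accessory subunit furthest from 0 was Ndufv3, a small protein of the NADH-oxidising tip. It was at 13.88, 13.89 and 13.89 against 14.18, 14.03 and 14.20, without overlap, a change of -0.25 ± 0.07 (limma adjusted p = 0.194), as far from 0 as any core subunit. Ndufa9, which lies by the ubiquinone site, followed at -0.22 ± 0.08 and Ndufs4, an accessory subunit of the electron-input part whose loss causes a fatal brain disease in mice, at -0.19 ± 0.08. At the other end were Ndufa2 at -0.02 ± 0.07 and Ndufa5 at 0.03 ± 0.07. Ndufa5 was at 14.30, 14.31 and 14.21 against 14.22, 14.32 and 14.19, with overlap, and its other probe set was at -0.08.

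Among membrane-arm subunits Ndufb8, often used as the blot marker of the assembled complex, was at 13.30, 13.42 and 13.31 against 13.62, 13.47 and 13.61. The groups were apart, with a change of -0.23 ± 0.08 (limma adjusted p = 0.236), or 1.17-fold lower. The second Ndufb8 probe set, far dimmer at log2 4.44, was at -0.08 ± 0.20. Ndufa10 and Ndufc2 were each at -0.19 ± 0.07, and Ndufb1 at -0.22 ± 0.12 on a much dimmer probe set. The Ndufb1 change was -0.11 without non-transgenic array 1 and -0.45 with the station as a block. Those nearest to 0 were Ndufb5 at -0.01 ± 0.08 and Ndufa13, also known as GRIM-19, at 0.01 ± 0.08, where the 95% interval ran from -0.19 to 0.21. Ndufb6, the membrane-arm subunit with the largest SE (0.15), was at 12.84, 13.24 and 12.85 against 12.99, 13.30 and 12.95, with array 2 of each group the highest. Ndufa1 and Ndufb11, the X-linked members, were at -0.06 ± 0.06 and -0.10 ± 0.07. In both, all labelled transgenic values lay below the others, which held for 10.9% of all genes.

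A pair of genes with subunit-like symbols stands apart by what is known of their proteins. Ndufa4 protein is found with cytochrome oxidase, and the gene was at -0.10 ± 0.06, like the accessory median. Ndufa4l2, its paralog and a target of the hypoxia-inducible factor, had the largest positive change. It was at 6.64, 6.64 and 7.06 on the labelled transgenic arrays and 6.29, 6.58 and 6.74 on the others. The groups overlapped, and the change was 0.24 ± 0.16 (limma adjusted p = 0.518), or 0.48 with the station as a block. Without labelled transgenic array 3 it was 0.10, and without non-transgenic array 1 it was 0.12. Without both genes the accessory median was still -0.10.

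Most members had several probe sets, and these allowed a second look at the same gene. Of the 72 tested, 67 were below 0 (47.5% of all probe sets were), 21 were lower at an unadjusted p under 0.05 (6.98% of all), and 40 had all labelled transgenic values below the others (9.78% of all). None had an adjusted p under 0.05, where 0.218% of all probe sets did, and the lowest was 0.076. All 15 core probe sets were below 0, and 10 of them were among the 21. In 16 of 20 genes with at least 2 tested probe sets, the second brightest had the more negative change, in some by little. Ndufc1 was at -0.15 on both and Ndufs7 at -0.24 on both. The same share was not computed over all genes. Ndufs8 was at -0.23 on its brightest probe set and at -0.30, -0.35, -0.16 and -0.39 on those of lower level. Ndufb11 was at -0.10, -0.16 and -0.20 in the same order.

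Probe sets disagreed by more than 0.5 within 2 genes and in sign within 3. In Ndufs4 the brightest probe set was at 12.22, 12.22 and 12.07 against 12.37, 12.30 and 12.41, a change of -0.19. The dimmest of the 3 tested was at 6.74, 6.63 and 6.42 against 8.09, 7.63 and 7.52. This gap is far wider than the spread within either group, at -1.15 ± 0.17 (limma adjusted p = 0.076), or 2.22-fold. Its limma adjusted p ran over the alternatives from 0.0295, when probe sets above log2 6 alone were tested (2.24% of genes passed in that fit), to 0.226 without labelled transgenic array 3. The third Ndufs4 probe set differed by -0.15, and averaging all 3 gave -0.50 for the gene (limma adjusted p = 0.0566). Which transcript form each probe set reads was not tested.

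In Ndufab1, the mitochondrial acyl carrier protein, the brightest probe set was at 13.95, 14.03 and 14.02 against 14.14, 14.10 and 14.07. These did not overlap, and the change was -0.10 ± 0.06. Its other 4 ranged from -0.32 to 0.20 at levels between log2 4.73 and 7.34. In Ndufa12 the 3 bright probe sets lay between -0.06 and 0.00, the brightest at 14.47, 14.52 and 14.46 against 14.52, 14.53 and 14.56. A dim one at log2 4.11 was at 0.38, with 1 high array, labelled transgenic array 1 at 4.83.

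**Figure D4:**
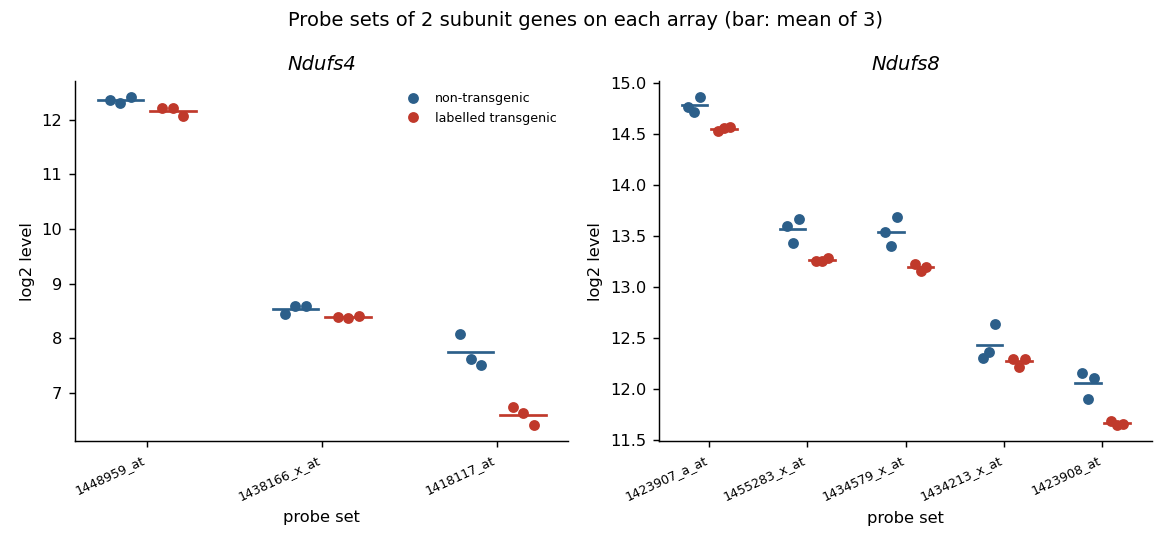
Log2 level (y axis) on each array of the tested probe sets of Ndufs4 and Ndufs8 (x axis), with group means as bars. The dimmest Ndufs4 probe set is the one with a wide gap, 6.42 to 6.74 against 7.52 to 8.09, and the changes of the 5 of Ndufs8 are -0.39 to -0.16.

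Complex I probe sets gave some of the brightest signals on the arrays, which bears on how their changes compare with those of all genes. The median level of the 35 was log2 13.80 against 7.48 for all genes, and 33 of them lay above log2 12, as did 4.01% of all genes. When probe sets above log2 12 alone were fitted, an alternative added after seeing the data, limma called 8 of 33 subunit genes, all lower. They were Ndufs1, Ndufs3, Ndufs7, Ndufs8, Ndufv3, Ndufa10, Ndufb8 and Ndufc2, and 4 of them are core. In that fit 19% of the 442 genes of such brightness were called in either direction and 11.1% were called lower. The bright genes had a median of -0.03, with 55.2% below 0 and 24% lower at an unadjusted p under 0.05. The subunits in that fit had a median of -0.10, with 93.9% below 0 and 36.4% lower at an unadjusted p under 0.05. All labelled transgenic values lay below the others in 29.9% of the bright genes and in 63.6% of these subunits. The 27 accessory subunits among them had 4 calls and 25.9% lower at an unadjusted p under 0.05, near the 24% of bright genes, and the 6 core subunits 4 calls and 83.3%. Of 37 genes of complexes II to V in that fit, 2 were called. Among these 37, 43.2% were lower at an unadjusted p under 0.05, and 67.6% had no overlap.

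**Figure D5:**
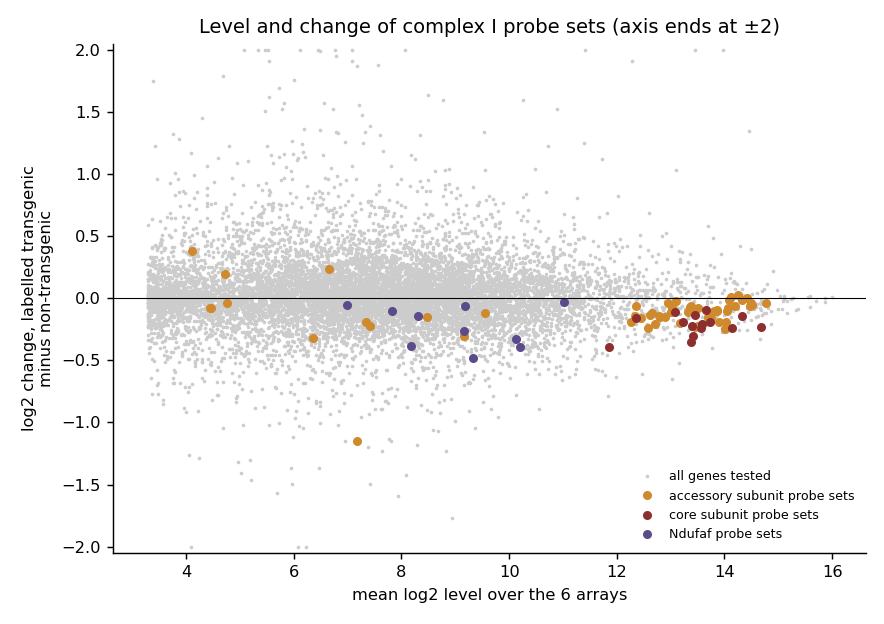
Mean log2 level over the 6 arrays (x axis) and log2 change, labelled transgenic minus non-transgenic (y axis), of the 72 subunit and 10 Ndufaf probe sets over all 11016 genes (grey, 1 probe set each; changes beyond 2 are drawn at the edge). Subunit probe sets crowd above log2 12 just under 0, Ndufaf probe sets lie at middle levels, and the point at -1.15 is Ndufs4.

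Assembly factors had the same median change as the core, on dimmer probe sets (median level log2 9.17). All 8 Ndufaf genes were below 0, with a median of -0.20, while 0 passed the adjusted test. At an unadjusted p under 0.05, 3 were lower, and 4 were lower without overlap. Among all genes, 47.6% were below 0, 7.76% lower at that p and 10.9% lower without overlap. Ndufaf4, which acts with Ndufaf3 in building the ubiquinone-binding part, ran from 9.94 to 10.07 against 10.32 to 10.49. Its groups were apart, at -0.39 ± 0.08 (limma adjusted p = 0.107), or 1.31-fold lower, and a second probe set was at -0.48. Ndufaf6 was at 8.01, 7.94 and 7.98 against 8.45, 8.23 and 8.38, again apart, at -0.38 ± 0.08 (limma adjusted p = 0.116). Ndufaf1, an early factor of membrane-arm assembly, was at 9.93, 9.99 and 9.95 against 10.38, 10.28 and 10.22, at -0.33 ± 0.07 (limma adjusted p = 0.119). Ndufaf3 was at -0.26 ± 0.11, and Ndufaf5, Ndufaf7, Ndufaf2 and Ndufaf8 lay from -0.14 to -0.03.

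Of 10 measured assembly factors with other symbols, 9 were below 0, against 47.6% of all genes, with a median of -0.27, and 0 passed. At an unadjusted p under 0.05, 5 were lower, against 7.76% of all genes. In 6 all labelled transgenic values lay below the others, against 10.9% of all genes. Tmem70, which also serves the assembly of ATP synthase, was at 10.78, 10.62 and 10.62 against 11.24, 11.29 and 11.12. Its change was -0.54 ± 0.08 (limma adjusted p = 0.078), with the groups apart. Foxred1 was at -0.29 ± 0.06 and Acad9, a partner of Ndufaf1, at -0.36 ± 0.10.

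Genes of the other respiratory complexes also lay mostly below 0. Of 39 measured genes of complexes II to V, 36 (92.3%) were below 0, with a median of -0.11, and 0 passed. At an unadjusted p under 0.05, 6 were lower (15.4%, against 7.76% of all genes). In 26 (66.7%) all labelled transgenic values lay below the others, against 60.0% of complex I subunits and 10.9% of all genes. By complex the medians were -0.15 for II, -0.14 for III, and -0.08 for IV and for V. The difference between complex I and these was not tested. Among other enzymes of the NADH and quinone pools, Nqo1, a cytosolic quinone reductase, was at 0.76 ± 0.13 (limma adjusted p = 0.078). Coq9, needed for ubiquinone synthesis, was at -0.33 ± 0.07 (limma adjusted p = 0.123). Nnt, the proton-driven transhydrogenase that is deleted in part in some C57BL/6 sublines, was bright in both groups, at 13.74, 13.60 and 13.60 against 13.76, 13.64 and 13.68.

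Of 12 known regulators of respiratory genes, 8 (66.7%) were below 0, against 47.6% of all genes, and 0 passed. Ppargc1a, a coactivator of mitochondrial genes, was at 9.46, 9.24 and 9.14 against 9.74, 10.17 and 10.04, a change of -0.71 ± 0.14 (limma adjusted p = 0.107). Esrra, a nuclear receptor that it coactivates, was at -0.25 ± 0.08. Yy1, a zinc finger factor, ran from 8.95 to 9.01 against 8.65 to 8.82, a change of 0.25 ± 0.07 (limma adjusted p = 0.183) with the labelled transgenic arrays on top.

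RefSeq promoter windows (GRCm38.p6, from 250 bases before to 50 after each start) were found for 39 of the 44 genes. They were searched on both strands for letters bound by such factors. The YY1 motif, the capitals of the first 4 lines below, stood in 3 of 32 subunit genes (9.38%) and in 0.755% of 27025 genes with a window of the same length. The NRF1 motif, the capitals of the last 2 lines, stood in 0 of 32 subunit genes and in 2 of 7 Ndufaf genes, against 1.07% of all. The letters of the oestrogen-related receptors, TCAAGGTCA, stood in 0 of 39 members and 0.466% of all genes. GABP letters, CCGGAAGT, stood in 1 subunit gene (3.12% against 4.31%), and SP1 letters, GGGCGG, in 15 (46.9% against 38.2%). The 6 matches of the first pair are shown as 30 bases on the gene's strand, to show where in these members the letters stand, with the matched letters in capitals.
Ndufs7 (chr10:80249464-80249493, + strand): gccgaggccAAGATGGCGGCgctggcgggt
Ndufs4 (chr13:114388045-114388074, - strand): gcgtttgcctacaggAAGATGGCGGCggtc
Ndufa9 (chr6:126849095-126849124, - strand): ttgtgggagAAGATGGCGGCcgccgtccgc
Ndufaf8 (chr11:120098935-120098964, + strand): gcagggcccAAGATGGCGGCgccctcgaga
Ndufaf4 (chr4:24897960-24897989, + strand): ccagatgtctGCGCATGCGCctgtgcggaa
Ndufaf5 (chr2:140170652-140170681, + strand): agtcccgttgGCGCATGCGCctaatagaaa
The 4 YY1 matches begin 11 to 36 bases after the annotated start, and that of Ndufaf4 begins at position -113. The 3 subunits with the YY1 letters were at -0.24, -0.19 and -0.22, and Ndufaf8 at -0.03. A match is a stretch of letters and was not tested for binding.

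Several other measures moved with the groups, and their part in the values above was not tested. Fewer heart muscle cells and less RNA per cell cannot be told apart in whole tissue. The 12 heart muscle markers had a median change of -0.02, with 6 on each side of 0 and the smallest p for Ryr2 (-0.29), Ckm (-0.17) and Pln (-0.12), and their summed level was log2 18.72 to 18.73 in the labelled transgenic group and 18.74 to 18.76 in the other. All 10 fibroblast markers lay above 0, with a median of 0.67 and a summed level of 14.41 to 14.76 against 13.96 to 14.24. All 9 macrophage markers did too, with a median of 0.46 and 12.56 to 12.79 against 12.11 to 12.27. Endothelial markers had a median of 0.03, with 5 of 9 above 0, and smooth muscle and pericyte markers -0.15, with 1 of 8 above 0. The summed atrial markers were at 14.43 to 14.69 against 12.10 to 12.72 and the skeletal muscle ones at 14.81 to 15.30 against 12.70 to 13.59, while their median changes were 0.08 and 0.10. In each sum 1 gene prevailed, Nppa at 2.19 (Myl4 was at -0.12 and Nr2f2 at 0.08) and Acta1 at 2.07 (Atp2a1 was at -0.09 and Myl1 at 0.18). Of the brown adipocyte markers, another cell rich in mitochondria, Ucp1, Elovl3 and Dio2 were below the brightness filter, as were Adipoq, Lep, Retn and Cidec of the white adipocyte markers. The 2 brown markers tested were Cidea, at 0.32 ± 0.11, and Cox8b, at -0.08 ± 0.06. Fabp4, the 1 white marker tested, was at -0.25 ± 0.08. The groups did not overlap in Cidea, Cox8b or Fabp4. With the other adipocyte markers below the filter, which cells these genes report here was not tested. As a gauge of RNA integrity, the actin control's 3' probe set exceeded its 5' one by log2 0.80 to 0.94 against 0.97 to 1.05, and the Gapdh one by 0.11 to 0.12 against 0.11 to 0.16. A fit blocked on the station gave medians of -0.20 for core subunits, -0.12 for accessory ones and -0.25 for Ndufaf genes, where 1 non-transgenic array shares the station of the other group.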

How the data were processed

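The authors deposited 1 log2 value per probe set and array. GCRMA is named in the submitters' processing notes, without a version in the sources read. Instrument records supplied station, scan order and chip lot word. Of 45101 probe sets 64 controls were left out. The platform annotation, of 2016, supplied gene names, and 10 probe sets shared by a subunit gene and another gene were left out by the rule. All 44 member genes matched the RefSeq table of GRCm38.p6 by gene ID.

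The test was that of limma 3.58.1 under R 4.3.3 (lmFit, eBayes, 2-sided) over 22518 probe sets, with Benjamini-Hochberg adjustment over all of them. The fit was tested on simulated data, mostly unchanged probe sets with the means and spreads of those tested. It called 0.1% of changes of 0.25, 13.8% of changes of 0.5, 79.3% of changes of 1 and 0.0204% of unchanged probe sets. The changes were placed on probe sets drawn at random. The median SE was 0.07 for subunit genes and 0.11 for all genes, so these shares are not those for subunits. Subunit genes lay between -0.25 and 0.24, and 0 calls among them does not show that they were unchanged. Members and lists were chosen with earlier results of these data known. Values are given on every array for core genes, for the 6 subunits of smallest p, for the 2 of largest rise, and where probe sets disagree in sign or by over 0.5. Of other lists at most 3 genes of smallest p are named, with Nnt always, the adipocyte markers below the filter and, for the check of labels and sex, Agtr1a, Myh7 and Xist. Alternatives covered brightness filters, normalization, variance, weights, blocks, probe set choice and left-out arrays.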

Additional observations from a re-analysis of the deposited data

How the results depend on the processing

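Same-numbered samples did not deviate together (correlations -0.0831, -0.174 and -0.00672), and with the replicate number as a block 0 subunit genes passed and the medians were -0.20 for core and -0.10 for accessory subunits. The count of subunit genes passing was 0 in every alternative but the brightness filter at log2 12, where it was 8 (Ndufs1, Ndufs3, Ndufs7, Ndufs8, Ndufv3, Ndufa10, Ndufb8 and Ndufc2). At log2 6 the dim Ndufs4 probe set passed. These fits often called little anywhere: 0 of 22518 probe sets passed with the replicate block, within station 2, with Xist as a term, and in 4 of the 6 fits without 1 array (limma, 2532 to 3771 at an unadjusted p under 0.05), so a count of 0 there says nothing about the members. Leaving out each array gave 0 calls, medians from -0.13 to -0.08 for all subunits, from -0.21 to -0.18 for core, from -0.11 to -0.08 for accessory subunits and from -0.24 to -0.14 for Ndufaf genes, and a core minus accessory difference from -0.11 to -0.10. The Ndufaf median was -0.25 with the station as a block and within station 2, and the core minus accessory difference -0.11 with array weights. Signs turned in Ndufb6, at -0.10, and in 6 genes nearer 0, and the cause was not tested. Averaging its probe sets put Ndufa12 at 0.07. Ndufa13 was at -0.01 with quantile normalization, at -0.11 with the station block or within station 2, and from -0.02 to 0.07 as single arrays were left out. Ndufa5 was at -0.01 with quantile normalization, -0.02 as a mean and -0.08 by its second probe set. Ndufb5 was at 0.02 with the station block, within station 2, or with Xist as a term, and from -0.07 to 0.02 as single arrays were left out. Ndufa2 was at 0.00 with Xist as a term. Leaving out single arrays gave from -0.04 to 0.03 for Ndufa2, from -0.23 to 0.00 for Ndufb6 and from -0.09 to 0.03 for Ndufaf8. Station 2, Xist and the log2 12 filter were added after seeing the data. The number of arrays limits the precision.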
